A study of Mus musculus with 2 samples.

Results

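The cells described here are capillary and angiogenic endothelial cells from the infarct zone of mouse hearts: 217 of 22084 cells kept after quality filtering, 80 of them in a GFP-high and 137 in a GFP-low library. The quality filter asked for 300 or more genes, 500 or more unique molecular identifiers (UMIs, each standing for one captured transcript) and no more than 20% mitochondrial UMIs. It counted as blood endothelial when at least 2 of the 5 endothelial genes Pecam1, Cdh5, Egfl7, Emcn and Esam were detected. It also needed fewer than 100 UMIs of Col1a1, Col1a2 and Col3a1 and fewer than 30 of C1qa, C1qb and C1qc per 10000, and fewer than 2 of the lymphatic genes Prox1, Mmrn1, Reln and Flt4. A capillary cell then held at least 2 UMIs of Gpihbp1, Aplnr, Rbp7 and Prnd together, and more of these than of the endocardial genes Npr3, Nrg1, Sost and Bmx. These counts chose the cells, so the levels of the 8 genes are a description and support nothing.

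The study compared 2 sorted fractions of non-cardiomyocytes, GFPhi and GFPlo, which other label fields name GFP-positive and GFP-negative. Both came from p16-2A-CreER;R26-mTmG mice with an infarct, so all cells share both alleles, the injury and the drug; p16, the product of Cdkn2a, is a cell cycle inhibitor used as a mark of senescent cells. The p16 locus drives a Cre recombinase that acts after tamoxifen and switches membrane tomato to membrane GFP. Tamoxifen was gavaged on day 5 after the infarct, and the tissue was taken on day 7. Each fraction gave 1 library, and the labels used here state neither the number, sex and age of the animals nor an uninjured or tamoxifen-free group. No test of a difference was therefore possible. Every interval below is an exact 95% interval that covers counting error only, and the spread between mice is not known.

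Heart muscle is fed by one of the densest capillary beds of the body, and its capillary endothelium takes up fatty acids and passes them to the cardiomyocytes. GPIHBP1 carries lipoprotein lipase to the capillary lumen, and RBP7, CD36 and the fatty acid binding proteins belong to the same lipid-handling equipment. When tissue becomes hypoxic, some endothelial cells turn into tip cells that lead sprouts and make apelin (Apln) and endocan (Esm1). The apelin receptor APLNR marks sprouting and venous-side endothelium, and PRND, or doppel, is a prion-like protein found on newly formed vessels.

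Promoter sequences are given for Prnd and Rbp7, which helped to choose the cells, and for Esm1 and Apln, which tip cells make. They cover 250 bases before the start of the gene from RefSeq on GRCm38.p6, 5′ to 3′ on the gene's strand, and the capitals mark matches to either of 2 short motifs. Those were AGGAAG, a form of the site of ETS factors, and ACGTG, the core of the hypoxia response element, each searched on both strands. Of 6 genes looked up, these 4 had an entry, and Gpihbp1 and Aplnr were the others.
Prnd, chr2:131950611-131950860, plus strand: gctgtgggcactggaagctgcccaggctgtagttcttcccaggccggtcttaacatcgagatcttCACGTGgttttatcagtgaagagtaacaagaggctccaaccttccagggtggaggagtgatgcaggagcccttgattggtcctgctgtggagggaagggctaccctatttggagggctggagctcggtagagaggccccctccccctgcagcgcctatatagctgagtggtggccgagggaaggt
Rbp7, chr4:149454969-149455218, minus strand: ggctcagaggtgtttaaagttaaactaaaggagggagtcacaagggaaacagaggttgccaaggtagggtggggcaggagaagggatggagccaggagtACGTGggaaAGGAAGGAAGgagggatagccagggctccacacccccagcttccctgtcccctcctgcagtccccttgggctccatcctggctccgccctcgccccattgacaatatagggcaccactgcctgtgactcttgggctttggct
Esm1, chr13:113209409-113209658, plus strand: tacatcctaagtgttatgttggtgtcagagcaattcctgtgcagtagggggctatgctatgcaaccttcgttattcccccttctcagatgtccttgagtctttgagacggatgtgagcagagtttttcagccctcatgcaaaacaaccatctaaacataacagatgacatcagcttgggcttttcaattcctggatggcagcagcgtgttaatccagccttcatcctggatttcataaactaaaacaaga
Apln, chrX:48034854-48035103, minus strand: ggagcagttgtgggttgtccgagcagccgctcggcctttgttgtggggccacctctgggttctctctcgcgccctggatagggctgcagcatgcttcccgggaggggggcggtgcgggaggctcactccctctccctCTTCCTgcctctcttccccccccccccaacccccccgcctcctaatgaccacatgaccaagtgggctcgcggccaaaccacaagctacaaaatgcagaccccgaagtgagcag
In the Prnd window ACGTG was found on both strands, 185 and 184 bases before the start, where the matches overlap as one palindrome. The Rbp7 window held ACGTG once, at 151 bases, and AGGAAG in 2 overlapping matches at 142 and 138 bases. The Apln window held AGGAAG on the opposite strand, at 113 bases, and the Esm1 window held neither motif. Of all 32851 RefSeq promoter windows of this length, 29.5% held AGGAAG and 16.6% held ACGTG, and a match describes the letters of the window, not a bound site. In GENCODE vM21 (mm10) Gpihbp1 (ENSMUSG00000022579) lies on chromosome 15 at 75596628 to 75599481. Aplnr (ENSMUSG00000044338) lies on chromosome 2 at 85136225 to 85139923, and Prnd (ENSMUSG00000027338) on the same chromosome at 131950861 to 131956130. Rbp7 (ENSMUSG00000028996) lies on chromosome 4 at 149449687 to 149454978.

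GFPhi had 10430 barcodes with 91343549 UMIs, and GFPlo had 12344 barcodes with 104855204 UMIs. The 2 libraries shared 94 barcodes, and 1 capillary cell carried one of them. Capillary cells were deeper in GFPhi, with a median of 10982.5 UMIs against 5001 in GFPlo, although kept cells as a whole had medians of 6899 and 7712 UMIs. Single capillary cells ranged between 1562 and 48571 UMIs in GFPhi and between 608 and 33659 UMIs in GFPlo. Together the cells held 1064859 UMIs in GFPhi and 917721 in GFPlo, and levels are given as CPM, the counts of a gene scaled so that each such sum has the same fixed total. Detection rises with depth, so shares of cells with a gene are also given after thinning each cell to 1000 UMIs.

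Capillary cells were a small share of both fractions and a larger part of the blood endothelium in GFPhi. They made up 0.790% of kept GFPhi cells (80 of 10125, interval 0.627 to 0.982%) and 1.15% of kept GFPlo cells (137 of 11959, 0.963 to 1.35%), which is 1.45-fold lower in GFPhi (1.09 to 1.94). Among blood endothelial cells the order was the other way round, with 29.2% in GFPhi (80 of 274, 23.9 to 35.0%) and 13.5% in GFPlo (137 of 1017, 11.4 to 15.7%), a ratio of 2.17 (1.62 to 2.88). Endocardial-side cells, those with at least 2 UMIs of Npr3, Nrg1, Sost and Bmx and more of these than of the capillary genes, numbered 124 in GFPhi and 650 in GFPlo. Their share of kept cells was 4.44-fold lower in GFPhi (3.66 to 5.42), a larger deficit than that of the capillary cells. When every cell was thinned to 1000 UMIs before the rule was applied, 38 of 9572 GFPhi cells (0.397%) and 45 of 11098 GFPlo cells (0.405%) qualified, a ratio of 0.979. The lower share of capillary cells in GFPhi was thus not seen at equal depth, where fewer cells reached 2 UMIs. With no C1q UMI and under 20 collagen UMIs per 10000 the ratio of shares of kept cells was 0.139. That left 14 capillary cells among 45 blood endothelial cells in GFPhi and 119 among 581 in GFPlo. The share of the blood endothelium is not given at equal depth. Its cells include 70 in GFPhi and 230 in GFPlo on neither the capillary nor the endocardial side. In these, 12 endothelial markers summed to 694 and 1562 CPM, against 5765 and 6309 CPM in capillary cells. A sort, cell recovery and the abundance of the cells in the tissue cannot be told apart here.

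Gpihbp1 was the commonest of the 4 selecting genes. It was detected in 71 of 80 capillary cells of GFPhi at 971 CPM and in 108 of 137 of GFPlo at 661 CPM. Aplnr was found in 51 and 72 cells at 190 CPM in GFPhi and 252 CPM in GFPlo, and Prnd in 32 and 47 cells at 302 CPM in GFPhi and 389 CPM in GFPlo. Rbp7 was found in 28 and 31 cells and differed most between the fractions, at 227 CPM in GFPhi and 100 CPM in GFPlo, a ratio of 2.27 (1.78 to 2.91). All 4 genes were thus present in both fractions, with more Gpihbp1 and Rbp7 per UMI in GFPhi and more Aplnr and Prnd in GFPlo. Of the endocardial genes, Npr3 and Sost had no UMI in any capillary cell, which at a floor of 3 counts allows up to 2.82 CPM in GFPhi and 3.27 CPM in GFPlo (the exact intervals end at 3.46 and 4.02 CPM), while Nrg1 had 2 and 8 UMIs and Bmx 5 and 16.

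**Figure D1:**
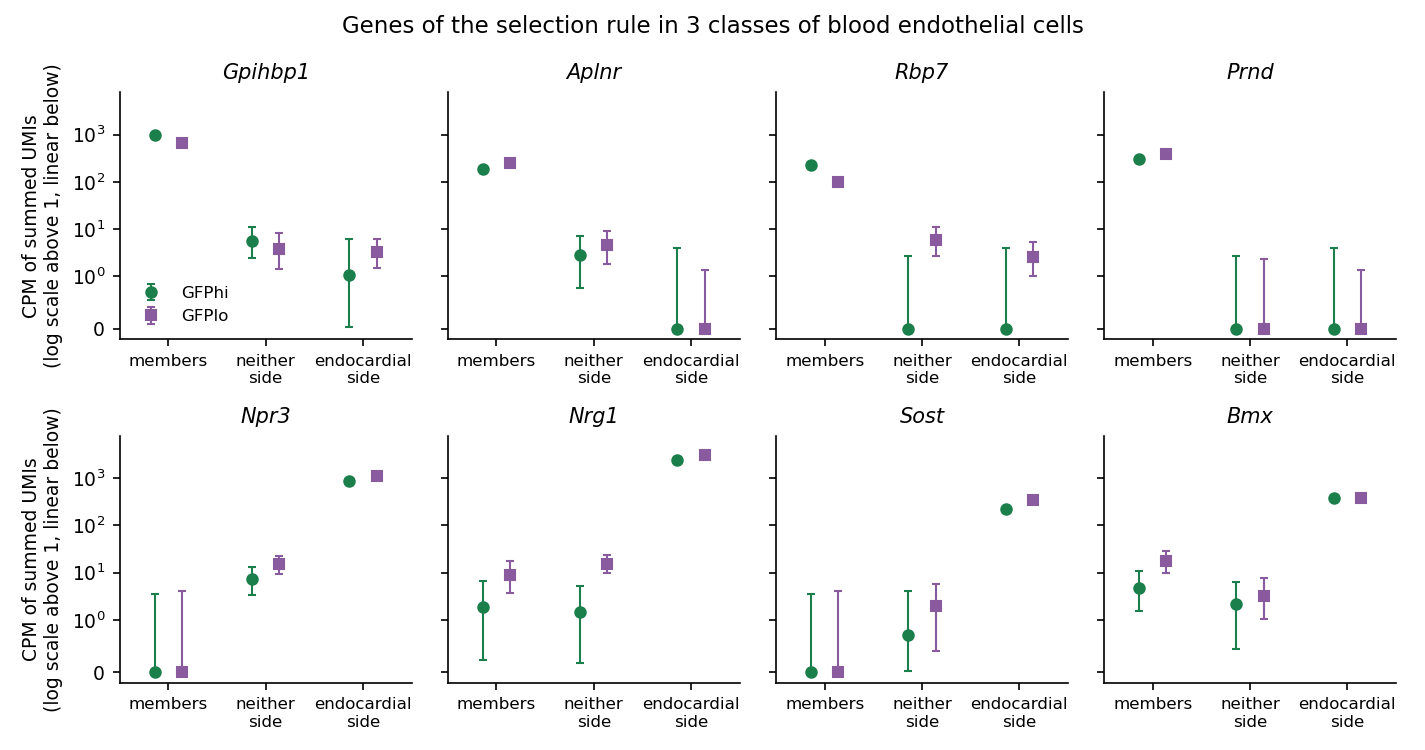
Levels of the 8 genes of the selection rule in capillary cells (members), blood endothelial cells of neither side and endocardial-side cells, in CPM of UMIs summed over the cells of a library on an axis that is linear below 1 and logarithmic above, with exact 95% Poisson intervals. Gpihbp1 stood at 971 CPM in GFPhi members and 661 CPM in GFPlo members, and Npr3 and Sost were at 0 there; the rule itself sets these differences between the 3 classes.

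Most capillary cells sat well inside the threshold in GFPhi and nearer to it in GFPlo. The median cell held 13 UMIs of the 4 genes in GFPhi and 7 in GFPlo, 53 and 47 cells held 10 or more, and 8 and 23 cells held exactly 2. Just outside were 6 GFPhi and 22 GFPlo blood endothelial cells with 1 UMI. Sparcl1, a matrix glycoprotein of the vessel wall that the rule did not use, was detected in 75.0% of GFPhi and 78.3% of GFPlo cells just inside, and in 33.3% and 31.8% of those just outside. Cd36 was found in 50.0% and 47.8% inside against 33.3% and 45.5% outside, and Pecam1 in 75.0% and 73.9% inside against 66.7% and 81.8% outside, so not every gene followed. Cldn5 was found in 25.0% and 13.0% inside against 16.7% and 4.55% outside, and Vwf in 37.5% and 21.7% inside against 50.0% and 36.4% outside. The cells inside were deeper, with medians of 3680.5 against 1970.5 UMIs in GFPhi and 2925 against 2477.5 UMIs in GFPlo. Outside the blood endothelial gate, 37 GFPhi and 65 GFPlo kept cells reached 2 UMIs of the 4 genes, and 26 and 45 of these carried at least 2 lymphatic genes. The 4 genes were uncommon in other cells chosen for having none of the 5 endothelial genes. Gpihbp1 had a UMI in 0.211% of 7111 such C1q-high GFPhi cells (median 6801 UMIs) and in 0.173% of 5782 such collagen-high GFPlo cells (median 8769.5 UMIs). Prnd had one in 1.13% of 354 collagen-high GFPhi cells and 0.346% of the collagen-high GFPlo cells. That choice also leaves out cells that took up endothelial RNA, so these shares do not measure free RNA. Cd36 and Fabp4 were not uncommon there, since 32.2% and 25.3% of the C1q-high GFPhi cells carried them.

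Ptprb and Tie1, endothelial genes outside the rule, were detected in most of the cells. Ptprb, a phosphatase of endothelial junctions, was found in 71 of 80 GFPhi and 112 of 137 GFPlo cells at 397 and 530 CPM, and Tie1, a receptor kinase of endothelium, in 60 and 83 cells at 163 and 196 CPM. The genes that follow are part of the gate and only describe the cells chosen by it. Cdh5, the adhesion molecule of endothelial junctions, was detected in 79 of 80 GFPhi and 128 of 137 GFPlo cells at 1232 and 1208 CPM. Egfl7, a secreted endothelial factor, stood at 665 and 566 CPM, and Emcn, a sialomucin of capillary and venous endothelium, at 686 and 708 CPM. The list of 12 endocardial markers, which holds the 4 opposing genes of the rule, summed to 659 CPM in GFPhi and 973 CPM in GFPlo with Npr3, Sost and Hapln1 at 0, against 7755 and 10155 CPM on the endocardial side. Car4, a gene of quiescent heart and lung capillaries, was nearly absent, with 4 UMIs in GFPhi and 2 in GFPlo.

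RNA of other cell types was present, and its kind followed the fraction. The 12 macrophage markers summed to 1614 CPM in GFPhi capillary cells and 174 CPM in GFPlo capillary cells, against 33873 and 1015 CPM over all kept cells. In the GFPlo capillary cells Csf1r, Fcgr1, Adgre1, Ms4a7 and Fcrls were at 0, whereas none of the 12 was at 0 in GFPhi. The 8 fibroblast markers ran the other way, with 365 CPM in GFPhi and 2103 CPM in GFPlo capillary cells against 5197 and 28566 CPM over kept cells. A few cells held much of this: the top 3 cells had 49.9% of the macrophage UMIs in GFPhi and 42.0% of the fibroblast UMIs in GFPlo. Mural markers summed to 239 and 256 CPM, mesothelial markers to 93.9 and 124 CPM, and T and NK cell markers to 1.88 and 21.8 CPM in GFPhi and GFPlo, and erythroid genes were at 0. No doublets were removed, so doublets, free RNA and expression in the endothelial cells cannot be told apart. Values are therefore repeated for the 33 GFPhi and 67 GFPlo capillary cells with under 10 UMIs of macrophage, fibroblast, mural and mesothelial markers per 10000, called marker-poor cells below and chosen after the data were seen.

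Compared with endocardial-side cells of the same library, capillary cells carried a large set of tip cell, capillary and basement membrane genes. Of 3481 genes measured, meaning at least 50 CPM in 1 of the 2 sums in both libraries, 416 (12.0%) were at least 2-fold higher in both libraries and 314 (9.02%) at least 2-fold lower. Both groups of cells were picked by their own counts, so these differences describe them and test nothing. Sparcl1 reached 2196 CPM in GFPhi and 1580 CPM in GFPlo capillary cells, against 2.17 and 34.0 CPM on the endocardial side. Cldn5, the claudin of tight junctions, had 250 and 258 CPM in capillary cells of GFPhi and GFPlo, against 1.09 CPM on the endocardial side of both. Rgcc, a cell cycle regulator high in capillaries, had 380 and 284 CPM against 4.34 and 6.15 CPM, and Igfbp3, a carrier of insulin-like growth factors, 611 and 721 CPM against 14.1 and 9.41 CPM. In both libraries these genes were high in capillary cells and near 0 on the endocardial side. On the other side, Smoc1, a matrix protein, had 0 and 3.27 CPM in capillary cells against 363 and 582 CPM on the endocardial side, and Cdh11, a cadherin, 8.45 and 10.9 CPM against 625 and 636 CPM. Fibroblast markers summed to 365 and 2103 CPM in capillary cells against 6765 and 6470 CPM on the endocardial side. Macrophage markers summed to 1614 and 174 CPM against 3725 and 3501 CPM. The part of other cells' RNA in the lower genes was not tested.

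**Figure D2:**
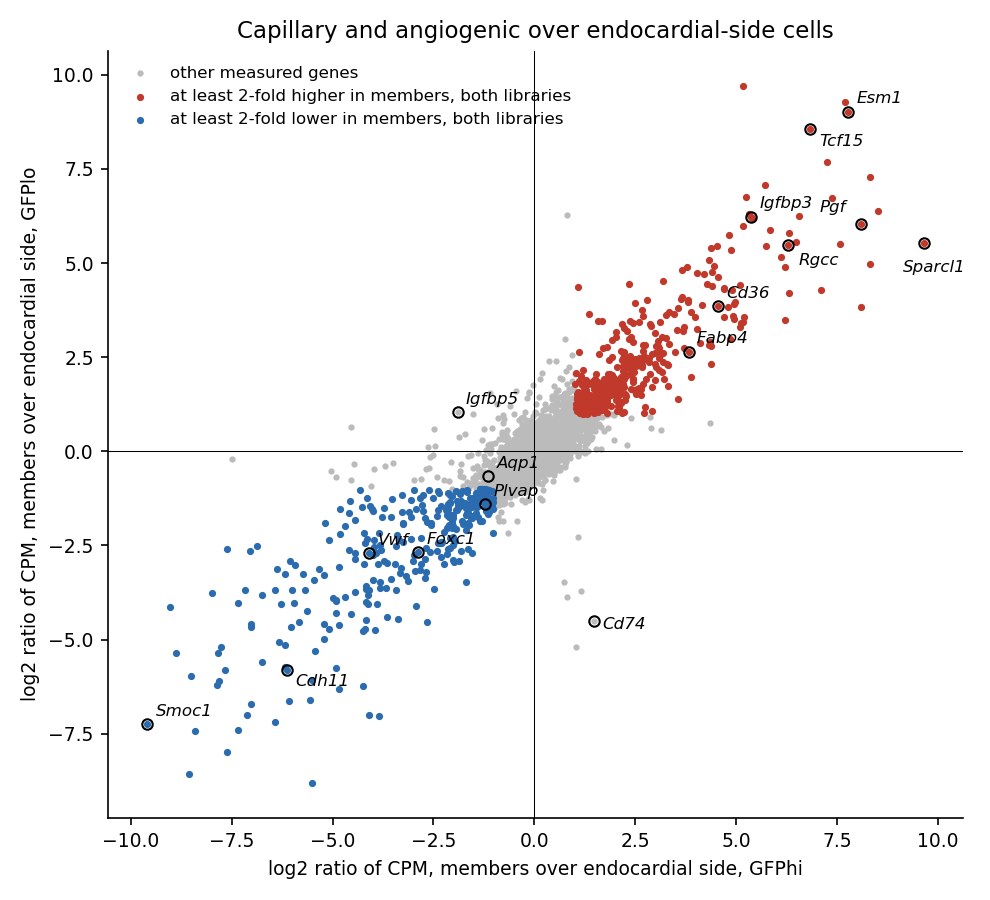
Each point is a measured gene outside the rule, with the log2 ratio of CPM in capillary cells (members) over endocardial-side cells in GFPhi across and in GFPlo upward, computed with a prior count of 0.5 so that genes at 0 can be drawn. Red and blue mark genes at least 2-fold higher or lower in both libraries; Sparcl1, Igfbp3, Pgf and Esm1 lie at the upper right, Smoc1 and Cdh11 at the lower left, and Cd74 and Igfbp5 are on opposite sides of 0 in the 2 libraries.

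The tip cell and sprouting list was higher as a whole. All 16 of its measured genes were at least 1.5-fold higher in both libraries (median log2 ratio 3.45 in GFPhi and 3.34 in GFPlo, against 0.10 and 0.04 over all measured genes), where 19.6% of all genes were higher and 14.3% lower by that size. Apln, the apelin precursor, had 137 CPM in GFPhi and 151 CPM in GFPlo capillary cells, against 3.26 and 0 CPM on the endocardial side. Esm1 had 119 and 93.7 CPM against 0 in both, and Pgf, a VEGF-family growth factor, 148 and 154 CPM against 0 and 2.17 CPM. Dll4, the Notch ligand of tip and arterial cells, had 83.6 and 113 CPM against 6.51 and 7.96 CPM, and Angpt2, the destabilising Tie2 ligand, 50.7 and 81.7 CPM against 13.0 and 10.5 CPM. These genes of sprouting were at or near 0 in the endocardial-side cells, with Angpt2 the nearest between the classes. Pgf and Nrp2 also stand in the VEGF list that follows, and other lists share genes too. Counts of different lists are therefore not separate results.

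Receptors of the VEGF family split. Kdr, the main signalling receptor VEGFR2, had 369 CPM in GFPhi and 300 CPM in GFPlo capillary cells, against 65.1 and 19.5 CPM on the endocardial side, and Nrp2 283 and 276 CPM against 46.7 and 25.3 CPM. Nrp1, the other VEGF co-receptor, ran the opposite way, with 291 and 336 CPM in capillary cells against 792 and 1089 CPM. Of 7 measured genes of that list 5 were higher and 1, Nrp1, was lower. Tek, the receptor Tie2, had 135 and 162 CPM in capillary cells and 153 and 183 CPM on the endocardial side, with both intervals of the ratio spanning 1.

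Capillary genes and fatty acid genes set the cells apart as well. Of 10 measured quiescent capillary genes 9 were higher and none lower (median 4.92 in GFPhi and 4.83 in GFPlo, or 4.39 in GFPhi with genes at 0 set to 3 counts). Ly6c1, a surface antigen of mouse microvessels, had 1010 and 663 CPM in GFPhi and GFPlo capillary cells against 43.4 and 14.8 CPM. Cd300lg, a sialomucin receptor of capillary endothelium, had 90.2 and 56.7 CPM against 0 and 0.362 CPM. Of 7 fatty acid genes 5 were higher and 2 lower: Cd36, a fatty acid transporter, had 316 and 302 CPM against 13.0 and 20.6 CPM, and Fabp4, an intracellular fatty acid carrier, 8357 and 7419 CPM against 589 and 1182 CPM. Tcf15 and Meox2, which form a heterodimer that drives fatty acid uptake in heart endothelium, were close to absent on the endocardial side, with Tcf15 at 62.0 and 67.6 CPM against 0 in both. Fabp5, a related carrier, was lower in capillary cells, at 865 and 651 CPM against 2704 and 3939 CPM, and so was Aqp1, the water and glycerol channel, at 90.2 and 122 CPM against 199 and 193 CPM.

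Basement membrane, transcription factor and junction genes followed. Of 13 measured basement membrane genes 12 were higher and none lower (median 2.02 and 1.71), and Col4a1, a chain of type IV collagen, had 2356 CPM in GFPhi and 2044 CPM in GFPlo capillary cells against 158 and 157 CPM. Of 17 endothelial transcription factors 13 were higher and 2 lower. Sox17, an arterial factor, had 172 and 142 CPM against 0 and 4.34 CPM. Foxc1 was one of the lower pair, with 14.1 and 21.8 CPM against 106 and 142 CPM, and the venous factor Nr2f2 the other, with 58.2 and 99.2 CPM against 204 and 208 CPM. Of 11 junction genes 8 were higher and 1 lower, and the 8 include Esam and Cdh5, which the gate used. Among 14 genes of TGF-beta and BMP signalling 2 were higher and 7 lower, including the ligand Bmp6 at 13.1 and 36.0 CPM against 413 and 572 CPM and the co-receptor Eng at 275 and 349 CPM against 962 and 1255 CPM.

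Arterial and venous genes gave no single direction. Of 10 arterial genes 5 were higher and 3 lower, and of 10 venous genes 2 were higher and 5 lower. Vwf, the platelet-tethering factor stored in endothelium, had 40.4 CPM in GFPhi and 117 CPM in GFPlo capillary cells, against 696 and 762 CPM on the endocardial side. Plvap, the diaphragm protein of fenestrae and caveolae, had 504 and 690 CPM against 1172 and 1821 CPM. Sele, an adhesion molecule of activated endothelium, was higher in capillary cells, at 113 and 204 CPM against 17.4 and 14.8 CPM. None of 12 dissociation stress genes and none of 6 interferon response genes was called in either direction. Of 11 cell cycle genes 9 were higher and none lower (median 2.18 in GFPhi and 0.76 in GFPlo), and 4 of 7 were without cells above 20000 UMIs. In marker-poor capillary cells 15 of 15 measured tip cell genes, 8 of 9 quiescent capillary genes and 11 of 12 cell cycle genes were higher, beside 714 of 3480 measured genes.

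The 4 selecting genes did not occur evenly within the cells. The commonest combination was Gpihbp1 with Aplnr alone, found in 18 GFPhi and 34 GFPlo cells. Aplnr was detected in 53.1% of GFPhi capillary cells with Prnd (17 of 32) and 70.8% of those without (34 of 48), and in 29.8% (14 of 47) and 64.4% (58 of 90) in GFPlo. The intervals of these shares overlapped in GFPhi (34.7 to 70.9% with Prnd, 55.9 to 83.0% without) and did not in GFPlo (17.3 to 44.9% with Prnd, 53.7 to 74.3% without). The rule itself lowers such shares, since a cell without Prnd needs UMIs of the other selecting genes. The cells were therefore also split by Prnd and by Aplnr, which was decided on with the data in view. Cells with Prnd were deeper than the rest, with medians of 17511 against 5808 UMIs in GFPhi and 9378 against 3971 UMIs in GFPlo, and the part of depth in what follows was not tested. Cells with Aplnr had medians of 11291 against 9403 UMIs in GFPhi and 4869 against 5675 UMIs in GFPlo.

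Cells with Prnd carried more tip cell and arterial genes and fewer venous, flow-response and fatty acid genes than the other capillary cells. Cells without Prnd could pass the rule only through Gpihbp1, Aplnr or Rbp7. The part of the rule in these differences was not tested. Of 3289 measured genes 69 (2.10%) were at least 2-fold higher in both libraries and 103 (3.13%) lower, and 5.87% and 9.03% passed 1.5-fold. Pgf had 212 CPM in cells with Prnd and 32.0 CPM in the other capillary cells of GFPhi, a ratio of 6.61, and 264 against 7.59 CPM in GFPlo, a ratio of 34.8. Tnc, the matrix glycoprotein tenascin C, had 180 against 10.7 CPM in GFPhi and 281 against 12.7 CPM in GFPlo. Nox4, an NADPH oxidase, had 145 against 26.7 CPM and 243 against 17.7 CPM, and Plau, the urokinase that activates plasmin, 84.0 against 5.34 CPM and 84.2 against 12.7 CPM. These 4 genes were at least 5-fold higher with Prnd in each library. With no C1q UMI and under 20 collagen UMIs per 10000, which left 14 GFPhi capillary cells, the GFPhi log2 ratio of Nox4 was −0.08. Of 13 basement membrane genes 1 was higher and none lower. In marker-poor cells Pgf had 244 against 0 CPM in GFPhi and 303 against 14.5 CPM in GFPlo, and Tnc 221 against 6.88 and 353 against 9.69 CPM. Marker-poor cells numbered only 21 with Prnd and 12 without in GFPhi, and 26 and 41 in GFPlo.

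Of the 16 measured tip cell genes 7 were at least 1.5-fold higher in cells with Prnd and none was lower (median log2 ratio 0.65 in GFPhi and 1.31 in GFPlo, against −0.03 and −0.02 over all measured genes). Besides Pgf these were Pdgfb, the platelet-derived growth factor that draws in pericytes, Esm1, Angpt2, Dll4, the adhesion molecule Mcam and the guidance receptor Unc5b. Esm1 had 159 CPM with Prnd and 45.4 CPM without in GFPhi, a ratio of 3.51 (2.10 to 6.25), and 149 against 20.2 CPM in GFPlo, a ratio of 7.37. One cell held 76.5% of the Esm1 UMIs of GFPhi cells without Prnd. By detection, Esm1 was found in 62.5% of GFPhi cells with Prnd (20 of 32) and 8.33% without (4 of 48), and in 36.2% (17 of 47) and 5.56% (5 of 90) in GFPlo. After thinning to 1000 UMIs it was found in 5 of 32 GFPhi cells with Prnd and 0 of 48 without, and in 6 of 47 and 0 of 85 in GFPlo. The intervals overlapped in GFPhi (5.28 to 32.8% with Prnd, 0 to 7.40% without). They did not in GFPlo (4.83 to 25.7% with Prnd, 0 to 4.25% without). Cells were split by Prnd at full depth, so thinning evened out the detection of Esm1 but not the split. Apln, whose promoter is printed with those of Prnd and Esm1, had 155 against 104 CPM in GFPhi, a ratio of 1.49 that fell short of the size for a call, and 220 against 60.7 CPM in GFPlo. After thinning Apln was found in 4 of 32 and 4 of 48 GFPhi cells and in 3 of 47 and 4 of 85 GFPlo cells, where no difference was detectable.

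Arterial genes were higher and venous genes lower in cells with Prnd. Of 9 measured arterial genes 5 were higher and 2 lower, and of the 5 Dll4 and Unc5b were also counted as tip cell genes. Gja4, the gap junction protein connexin 37, had 84.0 against 21.3 CPM in GFPhi, a ratio of 3.94 (1.87 at the lower bound), and 279 against 32.9 CPM in GFPlo, a ratio of 8.49 (4.81). After thinning, Gja4 was found in 1 of 32 and 2 of 48 GFPhi cells and in 11 of 47 and 4 of 85 GFPlo cells, so that in GFPhi no difference in detection was seen. Of 10 venous genes none was higher and 6 were lower (median −1.58 and −1.52). Selp, the adhesion molecule P-selectin of venules, had no UMI in the 32 GFPhi cells with Prnd against 163 CPM in the others, at least 37.4-fold lower, and 19.1 against 281 CPM in GFPlo. Lrg1, a glycoprotein of venules and inflammation, had 23.2 against 272 CPM and 45.9 against 369 CPM, and Nr2f2 15.9 against 136 CPM and 36.4 against 182 CPM. Of 9 flow-response genes 6 were lower and 2 higher: the shear-responsive factor Klf2 had 264 against 811 CPM in GFPhi and 419 against 1002 CPM in GFPlo, while Edn1, the vasoconstrictor endothelin, had ratios of 4.16 in GFPhi and 3.29 in GFPlo. Of 12 dissociation stress genes 8 were lower too, and stress, flow response and digestion of the tissue cannot be told apart for Klf2 and Klf4.

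Lipid genes were lower in cells with Prnd. Of 8 measured fatty acid genes 6 were lower and none higher (median −1.08 and −1.52). Fabp4 had 5244 CPM with Prnd and 14089 CPM without in GFPhi, and 3694 against 12346 CPM in GFPlo, and Cd36 had 201 against 526 CPM and 109 against 557 CPM. Flt1, the VEGF decoy receptor, was lower as well, at 272 against 707 CPM and 364 against 964 CPM, and Vegfc, a growth factor of veins and lymphatics, at 17.4 against 53.4 CPM and 28.7 against 114 CPM. Of 6 measured genes of the mesenchymal list 4 were higher, Tagln, Fn1, Acta2 and Vim. Fn1, fibronectin, had 391 against 160 CPM in GFPhi and 721 against 142 CPM in GFPlo, and in marker-poor cells 294 against 75.7 and 766 against 92.0 CPM. Acta2, the contractile actin of mural cells, had 82.6 against 40.0 CPM in GFPhi and 375 against 12.7 CPM in GFPlo, and in marker-poor cells 37.6 against 6.88 CPM and 42.7 against 14.5 CPM. Acta2 is itself 1 of the 8 mural markers that define marker-poor cells, so its values there are capped by the filter and are no check. The top 3 capillary cells held 74.8% of the mural marker UMIs in GFPhi and 69.4% in GFPlo. Tagln, another contractile gene of mural cells, had 349 against 56.0 CPM and 277 against 65.8 CPM. In marker-poor cells of GFPlo its direction turned, at 21.4 CPM with Prnd and 33.9 CPM without.

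Cells with Aplnr showed nearly the opposite arteriovenous pattern. Of 3247 measured genes 105 (3.23%) were at least 2-fold higher in both libraries than in capillary cells without Aplnr and 82 (2.53%) lower, and 8.01% and 6.34% passed 1.5-fold. Of 9 measured venous genes 7 were higher and none lower (median 1.60 in GFPhi and 1.86 in GFPlo, against −0.00 and 0.05 over all measured genes), and of 12 arterial genes 1 was higher and 9 were lower (median −1.13 and −1.73). Both splits divide the same cells, so they are no separate evidence of one axis. Cells without Aplnr could pass the rule only through Gpihbp1, Rbp7 or Prnd, and the part of the rule was not tested here either.

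Plvap had 756 CPM with Aplnr and 96.0 CPM without in GFPhi, and 1185 against 279 CPM in GFPlo. Nr2f2 had 85.0 against 14.8 CPM and 180 against 31.9 CPM, and Ephb4, the venous ephrin receptor, 100 against 32.0 CPM and 118 against 37.9 CPM. Of 11 adhesion and activation genes 5 were higher and none lower, namely Selp, Sele, Icam1, Lrg1 and Cxcl1. Selp and Lrg1 were also counted among the venous genes. Icam1 had 211 against 12.3 CPM in GFPhi and 382 against 69.7 CPM in GFPlo, and Sele 170 against 19.7 CPM and 416 against 27.9 CPM. Plvap, Nr2f2, Ephb4, Icam1 and Sele were all at least 3-fold higher with Aplnr in each library. Tek had 188 against 49.2 CPM and 279 against 65.8 CPM. Gja5, the arterial connexin 40, had no UMI in the 51 GFPhi cells with Aplnr against 68.9 CPM in the others, at least 15.1-fold lower, and 2.40 against 165 CPM in GFPlo. Gja4 had 12.1 against 143 CPM and 14.4 against 305 CPM, and was found after thinning in 0 of 51 and 3 of 29 GFPhi cells and in 1 of 70 and 14 of 62 GFPlo cells.

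Fatty acid genes were higher with Aplnr, 6 of 8 measured and none lower (median 1.14 and 0.72). Fabp4 had 11430 CPM with Aplnr and 3373 CPM without in GFPhi, and 10190 against 5123 CPM in GFPlo. Tip cell genes leaned the other way, with 5 of 16 lower and 1 higher. Of the 5, Unc5b, Dll4 and Cxcr4 were also counted among the lower arterial genes. Pgf had 34.9 against 332 CPM and 40.9 against 247 CPM, and Unc5b 94.1 against 229 CPM and 55.3 against 223 CPM. Apln itself, the ligand of the receptor, had 108 against 185 CPM in GFPhi and 166 against 139 CPM in GFPlo, so its direction differed between the libraries. Of 12 cell cycle genes 6 were lower and 1, Ccnd1, higher. In marker-poor cells the counts were 6 of 6 venous genes higher and 9 of 12 arterial genes lower, beside 312 higher and 260 lower of 3244 measured genes. Marker-poor cells numbered only 20 with Aplnr and 13 without in GFPhi, and 40 and 27 in GFPlo.

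**Figure D3:**
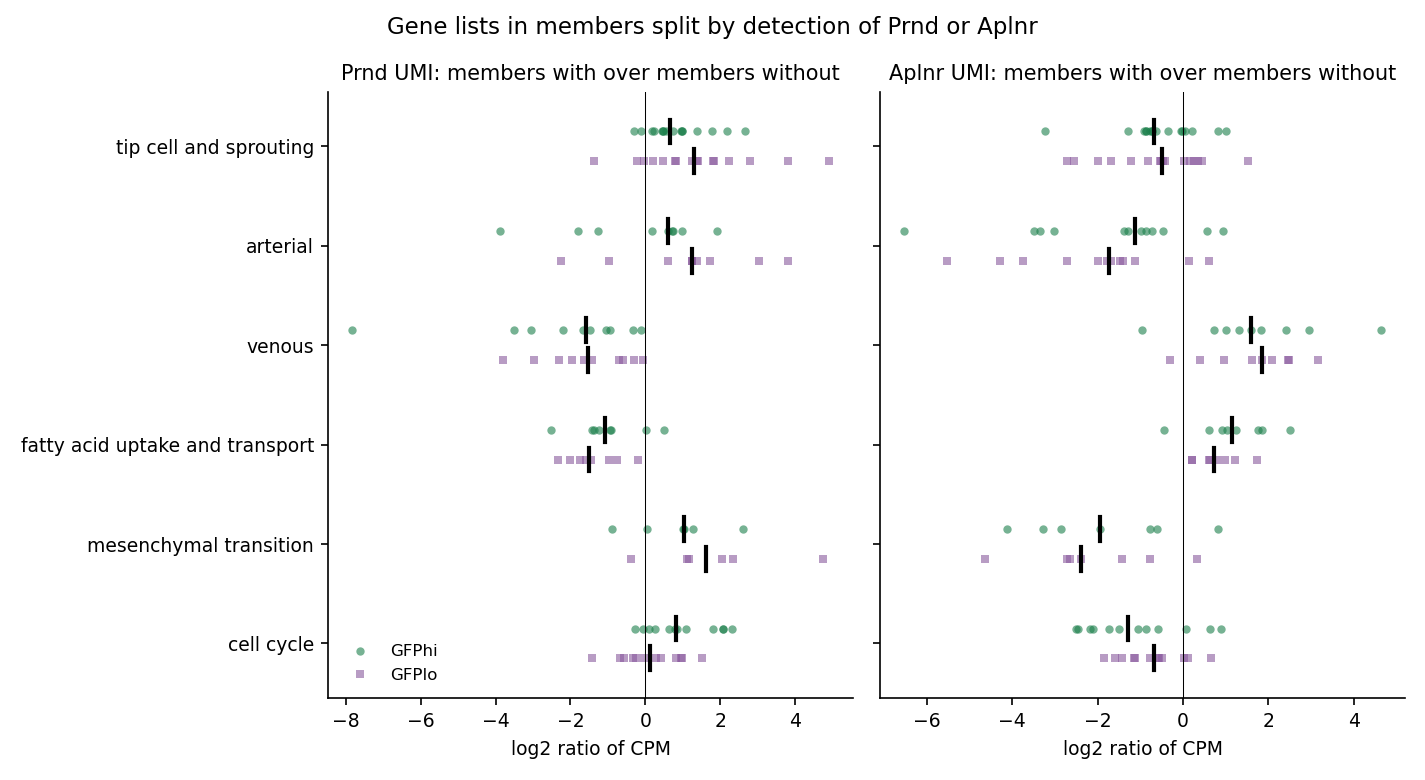
Log2 ratios of CPM for the measured genes of 6 lists, in capillary cells (members) with a Prnd UMI over those without on the left and with an Aplnr UMI over those without on the right; each point is a gene in one library, black bars are medians, and a prior count of 0.5 was used. On the left the venous medians stand at −1.58 in GFPhi and −1.52 in GFPlo and the tip cell medians at 0.65 and 1.31; on the right the venous medians stand at 1.60 and 1.86 and the arterial medians at −1.13 and −1.73.

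A further split set cells with more Aplnr and Prnd UMIs than Gpihbp1 UMIs against cells with more Gpihbp1. The Aplnr and Prnd side held 20 GFPhi cells (25.0%) and 55 GFPlo cells (40.1%), a ratio of shares of 0.623 whose interval reached past 1 (0.354 to 1.06), and the Gpihbp1 side held 55 and 71 cells. Few genes separated these sides: of 3179 measured, 18 (0.566%) were at least 2-fold higher on the Aplnr and Prnd side in both libraries and 24 (0.755%) lower. Apln had 302 CPM on the Aplnr and Prnd side and 78.7 CPM on the Gpihbp1 side of GFPhi, a ratio of 3.84 (2.72 to 5.44), and 222 against 88.1 CPM in GFPlo, a ratio of 2.52 (1.73 to 3.74). Cxcl12, the chemokine that draws CXCR4-bearing cells, had 1233 against 458 CPM and 648 against 269 CPM. Fabp4 was lower on this side, with 4326 against 9740 CPM in GFPhi and 4214 against 9864 CPM in GFPlo. Cd36 had 149 against 384 CPM and 147 against 404 CPM, and Fabp5 427 against 1018 CPM and 239 against 950 CPM. Of 8 fatty acid genes 5 were lower and none higher at 1.5-fold, beside 2.26% of all genes, of 16 tip cell genes 3 were higher, beside 2.08%, and no cell cycle gene was called.

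Between the sorted fractions, GFPhi capillary cells held more cell cycle transcripts and Cdkn1a, and less of several arterial transcripts, than GFPlo capillary cells. Of 3575 genes with at least 50 CPM in 1 of the 2 sums, 91 (2.55%) were at least 2-fold higher in GFPhi with the whole interval above 1 and 89 (2.49%) lower. At 1.5-fold, the size used for lists, 5.85% were higher and 8.70% lower, and the median log2 ratio was −0.03. Without the single cell that held most UMIs of a gene in each fraction, 81 of the 91 and 87 of the 89 still passed 2-fold in the same direction.

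The largest differences were in macrophage and fibroblast genes and moved with the RNA of those cells in each fraction. Lyz2, the macrophage lysozyme, had 560 CPM in GFPhi and 10.9 CPM in GFPlo capillary cells, a ratio of 51.4 (27.7 to 108), and was found in 72 of 80 GFPhi cells. Ms4a7 had 59.2 CPM in GFPhi and no UMI in GFPlo, at least 18.1-fold higher. Ccl4, a macrophage chemokine, had 131 and 2.18 CPM in GFPhi and GFPlo, and Cd74, the MHC class II chaperone, 211 and 9.81 CPM. All 4 measured MHC class II genes were at least 2-fold higher in GFPhi. Several of the lower genes are known from fibroblasts: Lum had 2.82 CPM in GFPhi and 108 CPM in GFPlo, Mfap5 15.0 and 308 CPM, Dcn 81.7 and 698 CPM and Mgp 463 and 2657 CPM. The part of other cells' RNA in these genes was not tested. In marker-poor cells Cd74 had 99.3 CPM in GFPhi and 10.3 CPM in GFPlo, and Mgp 64.1 and 304 CPM. With no C1q UMI and under 20 collagen UMIs per 10000 the direction of Mgp turned, to a log2 ratio of 0.73.

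Cell cycle genes were higher in GFPhi as a group, 14 of 16 measured and none lower (median log2 ratio 1.25), 12 of them by at least 2-fold. Top2a, the topoisomerase of dividing cells, had 293 CPM in GFPhi and 77.4 CPM in GFPlo, a ratio of 3.79 (2.92 to 4.97). Rrm2, a subunit of the enzyme that makes deoxynucleotides, had 62.9 and 9.81 CPM in GFPhi and GFPlo, a ratio of 6.42 (3.19 to 14.6). Mki67, the proliferation marker, had 144 and 59.9 CPM, a ratio of 2.40 (1.75 to 3.33), and Birc5, the mitotic survivin, 183 and 52.3 CPM, a ratio of 3.50 (2.54 to 4.91). Genes of both DNA synthesis and mitosis were among the higher ones. In marker-poor cells 14 of 17 were higher, beside 274 of 3631 measured genes, with Top2a at 3.97-fold, Rrm2 at 8.59-fold and Birc5 at 4.26-fold. Without cells above 20000 UMIs 14 of 16 cell cycle genes were higher.

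By cells, 25 of 80 GFPhi capillary cells (31.2%, 21.3 to 42.6%) and 19 of 137 GFPlo capillary cells (13.9%, 8.56 to 20.8%) had at least 2 of the 6 genes Mki67, Top2a, Birc5, Cdk1, Ccnb1 and Tpx2 detected. After thinning to 1000 UMIs the shares were 13.8% in GFPhi (11 of 80, 7.07 to 23.3%) and 4.55% in GFPlo (6 of 132, 1.69 to 9.63%), so the difference was also seen at equal depth, with intervals that overlap. Endocardial-side cells had 3.23% in GFPhi and 4.31% in GFPlo before thinning and 2.48% and 2.39% after it. With all UMIs the intervals of capillary and endocardial-side cells did not overlap in either fraction, and after thinning they met in GFPhi and overlapped in GFPlo. Among marker-poor capillary cells 42.4% in GFPhi and 16.4% in GFPlo met the criterion without thinning.

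**Figure D4:**
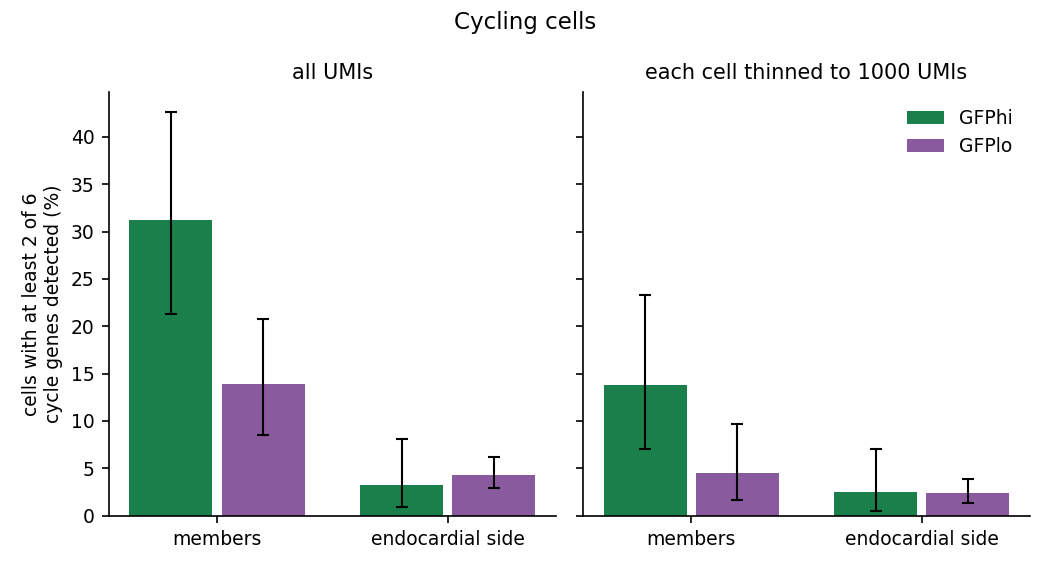
Share of cells with at least 2 of 6 cycle genes detected, in percent, for capillary cells (members) and endocardial-side cells, with all UMIs on the left and each cell thinned to 1000 UMIs on the right; bars are shares of 1 library and lines exact 95% Clopper-Pearson intervals. Capillary cells of GFPhi stand at 31.2% and 13.8%, those of GFPlo at 13.9% and 4.55%, and all endocardial-side shares are at most 4.31%.

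Cdkn1a, which encodes the cell cycle inhibitor p21, was higher alongside the cycle genes. It had 224 CPM in GFPhi and 85.0 CPM in GFPlo, a ratio of 2.63 (2.03 to 3.44), in 46 of 80 and 35 of 137 cells, and a ratio of 2.09 in marker-poor cells. Lmnb1, the nuclear lamin B1 that falls in senescent cells, had 74.2 and 38.1 CPM in GFPhi and GFPlo, a ratio of 1.95 (1.29 to 2.98). Cdkn2a, the p16 gene that drove the sort, had 2 UMIs in each fraction. The reporter feature mGFP had 48.8 CPM in GFPhi and 44.7 CPM in GFPlo, a ratio of 1.09 (0.712 to 1.69), in 32 and 31 cells, and CreERT2 had no UMI. The reporter transcript thus did not separate the capillary cells of the fractions within counting error, and no source used here says whether mGFP also counts transcript from before recombination. Ccl8, the chemokine in the title of the study, had 10 UMIs in 6 GFPhi cells, 50.0% of them in 1 cell, and none in GFPlo.

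More arterial and venous genes were lower than higher in GFPhi, and the venous count was lost without the deepest cells. Of 11 measured arterial genes 6 were lower and 1, Cxcr4, was higher (median −0.78). Gja5 had 26.3 CPM in GFPhi and 91.5 CPM in GFPlo, 3.48-fold lower (2.25 to 5.55), and Gja4 62.0 and 173 CPM, 2.80-fold lower (2.09 to 3.78). Efnb2, the arterial ephrin, had 92.0 and 158 CPM in GFPhi and GFPlo. Of 10 venous genes 5 were lower and none higher (median −0.58): Vwf had 40.4 and 117 CPM, 2.89-fold lower (2.01 to 4.22), and Nr2f2 58.2 and 99.2 CPM. Mgp and Fbln2 of the arterial list are also fibroblast genes, and fibroblast RNA was higher in GFPlo. In marker-poor cells 8 of 13 arterial and 6 of 9 venous genes were lower and none was higher, beside 381 of 3631 measured genes lower. Without cells above 20000 UMIs 6 of 11 arterial genes but 1 of 10 venous genes were lower, beside 275 of 3646 measured genes, so the venous count was then near that of all genes.

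**Figure D5:**
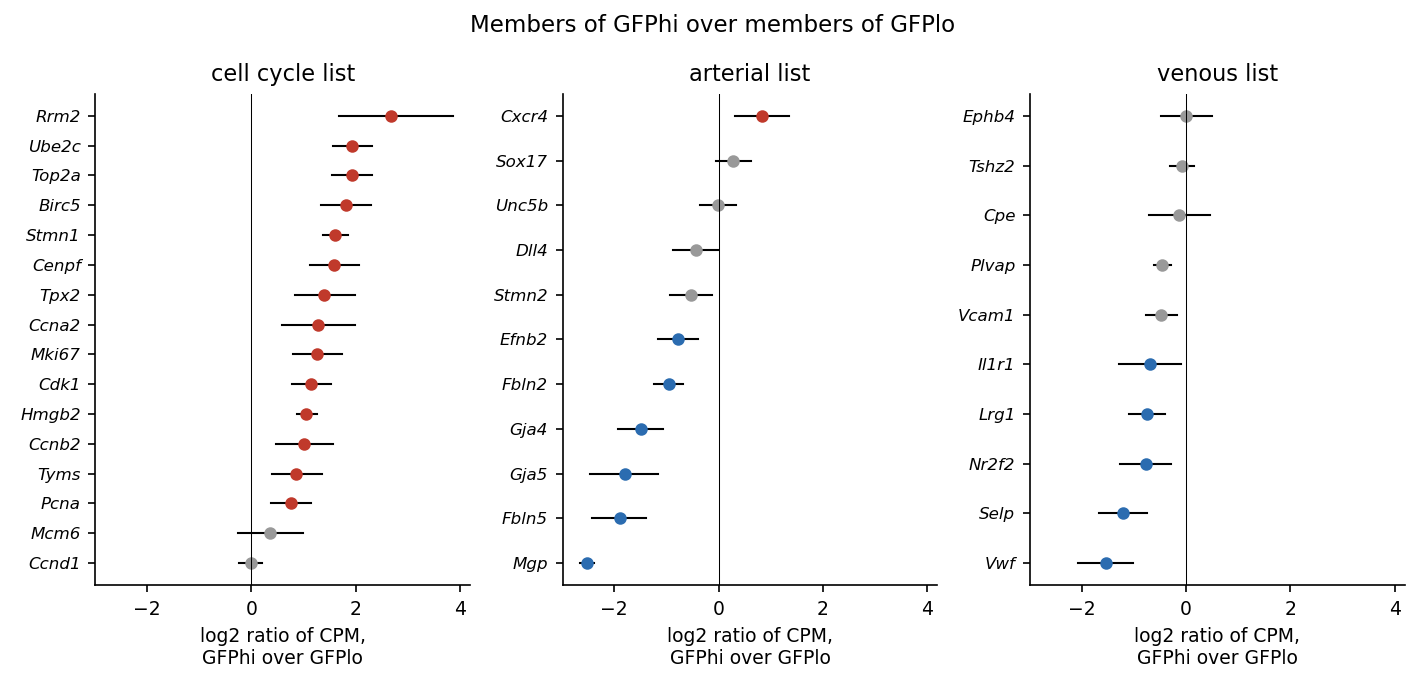
Log2 ratio of CPM in GFPhi over GFPlo capillary cells (members) for the measured genes of the cell cycle, arterial and venous lists, with exact 95% intervals; red and blue points are genes at least 1.5-fold higher or lower with the whole interval past 0, grey points are not. Of the cell cycle genes 14 of 16 are red, with Top2a at 1.92 and Rrm2 at 2.68, and Gja5 at −1.80 and Vwf at −1.53 are among the blue points.

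Adhesion molecules and chemokines were mixed. Of 11 measured adhesion and activation genes 4 were lower and 1 was higher: Sele had 113 CPM in GFPhi and 204 CPM in GFPlo and Icam1 135 and 211 CPM. Of the lower genes, Selp and Lrg1 were also counted as venous. Selp had 57.3 and 132 CPM, 2.30-fold lower, with 50.8% of the GFPhi UMIs in 1 cell. Without cells above 20000 UMIs none of 11 was lower and 2 were higher, so these calls rest on the deepest cells. Ccl2, the monocyte attractant, was higher at 192 and 61.0 CPM, with 62.7% of its GFPhi UMIs in 1 cell and a ratio of 1.93 without the top cell of each fraction. Cxcl10, the interferon-induced attractant of T cells, had 77.0 and 36.0 CPM, a ratio of 2.14 (1.41 to 3.31).

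Capillary identity genes were closer to each other in the 2 fractions. None of the 8 fatty acid, 13 basement membrane, 11 junction, 9 caveolar and 5 Notch genes measured was past 1.5-fold with its interval. The junction genes include Cdh5, Pecam1 and Esam, which the gate used. Fabp4 had 8357 CPM in GFPhi and 7419 CPM in GFPlo, a ratio of 1.13 (1.09 to 1.16), Cd36 316 and 302 CPM and Kdr 369 and 300 CPM. Of 10 quiescent capillary genes 2 were higher, Ly6c1 at 1010 and 663 CPM, a ratio of 1.52 (1.38 to 1.69), and Cd300lg at 90.2 and 56.7 CPM, a ratio of 1.59 (1.12 to 2.27). Among 16 tip cell genes 1 was higher and 2 were lower, Angpt2 at 50.7 and 81.7 CPM among them, while Esm1 had 119 and 93.7 CPM and Apln 137 and 151 CPM, with intervals of the ratio that spanned 1.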

How the data were processed

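The 2 droplet 3′ single-cell libraries, GFPhi and GFPlo, were taken as deposited: whole-number UMI counts of 32287 features per barcode, made by the authors on mm10 per the submitters' processing notes. The labels' protocols name a SeekOne kit, and another label field 10x Genomics; no source used here names the aligner, counting program or cell calling. The 78 rows with a repeated symbol were left out of comparisons across genes.

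Counts were summed over cells per library and compared as ratios of CPM with exact conditional binomial intervals; shares have Clopper-Pearson and levels Poisson intervals, all at 95% (Python 3.11.15, numpy 2.4.6, scipy 1.17.1, pandas 2.3.3). The ratio code was checked on simulated counts. With 1 library per fraction there was no test. A gene was called by size alone: at least 2-fold (1.5-fold in lists), with the whole interval past 1 between fractions, or in both libraries within them. List medians used a prior count of 0.5, and a count of 0 was read as up to 3 counts. Thinning drew 1000 UMIs per cell without replacement. No doublet caller was run; the collagen and C1q limits, and repeats without cells above 20000 UMIs, stand in its place. The cells and the genes of the 27 lists were chosen with earlier results of these data known. Named genes were those of the rule, mGFP, Cdkn2a, Ccl8, the 10 in each direction with the largest nearer interval bound per comparison, and in each list the 5 highest and the 2 most changed in each direction. Not all of these are repeated in the text, and further list genes, CreERT2, Car4, Tie1 and the genes given at the threshold were named after their values were seen. The splits by Prnd and by Aplnr were added after seeing the data. Alternatives covered the cell and gene filters, scaling, doubtful cells and depth. GENCODE vM21 matched 32158 of 32285 Ensembl identifiers (99.6%).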

Additional observations from a re-analysis of the deposited data

Results flagged for a closer look

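Some genes stood on opposite sides of 1 in the 2 libraries under the same comparison, by at least 2-fold each way. None of these differences between libraries was tested, and there were 6 such genes among 3481 measured for capillary over endocardial-side cells, 15 of 3179 for the Aplnr and Prnd side over the Gpihbp1 side, 11 of 3289 for cells with over without Prnd and 1 of 3247 for cells with over without Aplnr. Those named here belong to the lists or the naming rule.

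On the Aplnr and Prnd side over the Gpihbp1 side, 3 mitotic genes were higher in GFPhi and lower in GFPlo: Birc5 had ratios of 2.78 and 0.463, Ccnb2 of 2.33 and 0.465, and Ube2c of 4.29 and 0.324 in GFPhi and GFPlo. By cells, the share with at least 2 of 6 cycle genes was compared as well. In GFPhi it was 25.0% (8.66 to 49.1%) on the Aplnr and Prnd side and 34.5% (22.2 to 48.6%) on the Gpihbp1 side. In GFPlo it was 10.9% (4.11 to 22.2%) and 18.3% (10.1 to 29.3%), so the intervals overlapped in both libraries. After thinning, the shares were 10.0% (2 of 20) and 14.5% (8 of 55) in GFPhi. They were 3.70% (2 of 54) and 1.47% (1 of 68) in GFPlo, where the order turned. The intervals overlapped again, so no direction was resolved by cells. Gja4 had ratios of 0.476 in GFPhi and 2.13 in GFPlo, and the chemokine Cxcl9 of 0.137 and 5.62.

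For capillary over endocardial-side cells, the MHC class II genes Cd74, at 2.82 in GFPhi and 0.0416 in GFPlo, and H2-Eb1, at 2.08 and 0.0233, differed. Macrophage markers summed to 1614 CPM in capillary and 3725 CPM in endocardial-side cells of GFPhi, and to 174 and 3501 CPM in those of GFPlo; their part was not tested. Igfbp5 had ratios of 0.267 in GFPhi and 2.06 in GFPlo.

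In cells with over without Prnd, Cxcl9 had ratios of 0.260 in GFPhi and 3.24 in GFPlo, and Cxcl10 of 2.08 and 0.204. In cells with over without Aplnr, Ccl2 had ratios of 0.195 in GFPhi and 4.42 in GFPlo. Single cells held 53.9% of the Cxcl9 UMIs of GFPhi capillary cells and 75.7% of those of GFPlo, and 62.7% of the Ccl2 UMIs of GFPhi.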

How the results depend on the processing

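No paired analysis was possible because each fraction gave 1 library and the labels carry no replicate numbers. Of 2117 values of named genes under the alternatives, 1925 moved by less than their counting interval and 16 reversed. The other 176 moved by more than that, up or down, and kept their direction. The causes were not tested. Precision is limited by the few cells, and doublets and other cells' RNA by the lack of a reference for either.

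The share of capillary cells was 0.953% in GFPlo with at least 3 UMIs of the 4 genes, 0.138% in GFPhi and a ratio of 0.139 with no C1q UMI and under 20 collagen UMIs per 10000, 0.326% and 0.560% among marker-poor cells, and 0.397% and 0.405% with a ratio of 0.979 after thinning first. Cycling shares after thinning were 13.8% and 4.55%.

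With a minimum of 20 CPM, higher and lower counts were 206 and 277 between fractions, 675 and 537 against the endocardial side, 44 and 86 for the Aplnr and Prnd side, 125 and 206 for Prnd and 178 and 159 for Aplnr. With 100 CPM they were 44 and 36, 246 and 206, 8 and 13, 34 and 65, and 55 and 41, in the same order. Fewer genes were measured under the stricter minimum by construction. With no C1q UMI, 176 and 156 genes were higher and lower between fractions and 189 lower with Prnd. Only 42 of the 91 higher and 29 of the 89 lower genes between fractions were called again, and 33 of 69 and 60 of 103 with Prnd. Against the endocardial side 296 of 416 and 267 of 314 were called again. The Aplnr and Prnd side then held no GFPhi cell and gave no value. Without cells above 20000 UMIs, 8 of its 18 higher and 7 of its 24 lower genes were called again. In marker-poor cells 142 were lower between fractions, and 112 were higher and 158 lower with Prnd. Of the genes called in all capillary cells, 48 of the 89 lower between fractions were called again. With Prnd these were 52 of 69 higher and 83 of 103 lower, and on the Aplnr and Prnd side 9 of 18 higher and 8 of 24 lower.

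The reversed log2 ratios were, with no C1q UMI, Mgp 0.73 and Aplnr 0.01 between fractions, Nox4 −0.08 and Gpihbp1 0.13 with Prnd in GFPhi, and Gpihbp1 −0.29 and Egfl7 −0.41 with Aplnr in GFPhi. Without cells above 20000 UMIs they were Serping1 0.70 in GFPhi and Emcn −0.04 in GFPlo on the Aplnr and Prnd side, and Cxcl9 −0.37 with Aplnr in GFPlo. In marker-poor cells they were Serping1 0.07 and 0.57, Dcn 1.24 and 0.18, Mgp 0.80 (GFPhi) and Tagln −0.72 (GFPlo) on the Aplnr and Prnd side, and Tagln −0.67 with Prnd in GFPlo.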
